A study of Mus musculus with 14 samples.

Results

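The extracellular matrix genes of the mouse hippocampus were followed here together with the integrins that bind the matrix and the proteases that cut it. The members were all genes of the deposited count table whose symbol belongs to the collagens (Col), laminin chains (Lama, Lamb, Lamc), integrin chains and integrin-named partners (Itga, Itgb), hemicentins (Hmcn), fibulins (Fbln), fibrillins (Fbn), CCN proteins, ADAM, ADAMTS and MMP proteases, TIMP inhibitors, nidogens, thrombospondins, SPARC proteins, lecticans, link proteins (Hapln) and the tenascins Tnc and Tnr. By this rule 112 of the 7756 genes were members, and the rule reads gene symbols only. A total of 204 protein-coding symbols of the mouse annotation match the rule, and those beyond the 112 were not analysed here.

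The study asked how intermittent and sustained hypoxia change hippocampal gene expression in mice, as a model of the oxygen swings of sleep apnea. Hippocampi came from wild-type male C57BL/6J mice that were 8 weeks of age when exposure began, and each library is a separate mouse. The IH group (5 libraries) breathed oxygen cycling between 10% and 21% every 2 min for 8 h a day over 28 days, the SH group (5 libraries) breathed 10% oxygen for 8 h a day over the same period, and the control group (4 libraries) was kept at 21% oxygen. Tissue was taken after the exposure and the behavioral testing that followed it, and per the study's methods the control libraries came from a preliminary experiment, so that experiment and control status cannot be told apart.

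The brain matrix has a basement membrane around vessels and under the meninges, built of type IV collagen, laminins and nidogens, and a looser net of lecticans, hyaluronan and tenascins around neurons. Integrins are heterodimers of an alpha and a beta chain that tie cells to these proteins. MMPs, ADAMTS enzymes and the membrane-bound ADAM sheddases cut matrix and surface proteins, and TIMPs inhibit many of these metalloproteases.

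The deposited totals ranged from 7203660.5 to 11777100.0 estimated counts per library, and 106 of the 112 members averaged 40 or more counts in all 3 groups and were tested. The other 6 did not pass and have no test. Values below are normalized counts, that is, counts scaled to a common library size, and adjusted p-values come from edgeR's quasi-likelihood test over 7338 genes. The authors had selected the deposited genes partly by their signal against control, so all shares and adjusted p-values hold within that selection only. Neurons of the hippocampus were well represented, with markers of CA1 and CA3 pyramidal cells summing to 27758 to 34295 in the control, 27967 to 33318 in the IH and 27017 to 34379 in the SH libraries.

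Libraries differed in tissue content within groups. The raw count of Ttr, the transthyretin gene that marks choroid plexus epithelium, lay between 16704 and 71380 in 6 libraries (control 4, IH 1, IH 4, SH 1, SH 2 and SH 5) and between 341 and 3169 in the other 8. Mean raw Ttr was 18507 in control, 16248 in IH and 18722 in SH, and the groups were not separated by a two-sided exact permutation test (p = 0.952 for IH vs. control, 0.984 for SH vs. control and 0.992 for IH vs. SH). The medians were 1152.5, 3169 and 16704, and 1 of 4 control, 2 of 5 IH and 3 of 5 SH libraries exceeded 10000. The control mean rests on control 4 (71380), and with so few libraries the test does not show that plexus content was balanced. IH 5, SH 4 and SH 5 formed a further set, with dentate gyrus granule cell markers summing to 14326 to 14641 against 7163 to 10861 elsewhere, and oligodendrocyte markers to 146767 to 202131 against 76981 to 127266. The dentate markers also separated controls (7163 to 8881) from IH (9396 to 14326) and SH (9191 to 14641), and hemoglobin and other erythrocyte genes summed to 2926 to 3189 in control, 1649 to 2304 in IH and 2203 to 3081 in SH. In such bulk tissue, fewer cells of a type and less RNA per cell cannot be told apart, and the part of these differences in the results below was not tested.

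The promoters of Adam10, Adam8 and Hmcn1 are shown because Adam10 rose under both exposures, while Adam8 and Hmcn1 had the largest rise and fall among the called members in the IH group. Each line is the stretch before the gene's GENCODE start that overlaps no annotated exon, within the 250 bases before the RefSeq start (RefSeq table on GRCm38.p6, located in GRCm39 by exact match), read 5′ to 3′ on the gene's strand. Capitals mark the core of the hypoxia-inducible factor motif (ACGTG or GCGTG, on either strand, with overlapping matches counted separately). The Adam10 stretch is chr9:70586014-70586220 (plus strand), that of Adam8 is chr7:139572476-139572725 (minus strand), and that of Hmcn1 is chr1:150869201-150869314 (minus strand).
Adam10: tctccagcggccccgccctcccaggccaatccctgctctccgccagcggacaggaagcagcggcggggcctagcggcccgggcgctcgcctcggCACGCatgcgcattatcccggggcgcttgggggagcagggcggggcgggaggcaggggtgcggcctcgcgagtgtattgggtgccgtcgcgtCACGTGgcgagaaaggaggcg
Adam8: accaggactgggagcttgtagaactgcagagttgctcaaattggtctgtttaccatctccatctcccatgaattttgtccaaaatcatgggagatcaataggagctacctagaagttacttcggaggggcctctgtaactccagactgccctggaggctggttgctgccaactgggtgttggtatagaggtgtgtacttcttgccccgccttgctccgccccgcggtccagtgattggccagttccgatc
Hmcn1: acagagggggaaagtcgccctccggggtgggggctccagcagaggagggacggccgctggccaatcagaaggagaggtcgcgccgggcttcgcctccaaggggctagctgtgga
The Adam10 stretch held 3 core matches, and those of Adam8 and Hmcn1 held none. Of the 17 members called in any comparison, 13 had an entry in the promoter table and 5 of these held the core in the 250 bases, against 38.6% of all 27025 promoters. An AP-1 motif (TGANTCA, either strand) was in 0 of the 13, against 6.87% of all promoters. A match of letters is a description of the window and does not show a bound factor.

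In the IH group, 11 of the 106 tested members differed from control at an adjusted p under 0.05, 6 higher and 5 lower, beside 10.9% of all tested genes (6.08% higher and 4.85% lower). In the SH group 10 of 106 differed, 6 higher and 4 lower, beside 20.6% of all tested genes (10.2% higher and 10.5% lower). Between IH and SH, 2 members differed, 1 in each direction, beside 2.37% of all tested genes (1.47% higher and 0.899% lower in IH). At an unadjusted p under 0.05, 24, 25 and 16 members passed, in that order, beside 29.8%, 36.0% and 15.8% of all tested genes. At the adjusted p the members' shares were 10.4%, 9.43% and 1.89%, below that of the whole table. The order turned in 8 of 24 alternatives for IH vs. control, in 4 for IH vs. SH and in 0 for SH vs. control, by most in IH with the GC content and length trends removed (9.43% of members against 6.34% of all genes), without control 4 (10.4% against 7.13%) and without IH 2 (9.43% against 7.8%). By the cut-offs of the study, which ask for a log2 fold change of more than 0.58 in size and an unadjusted p under 0.05, 2 members were higher and 3 lower in IH vs. control (all genes, 1.55% and 1.13%), and 1 was higher and 0 lower in SH vs. control (all genes, 1.21% and 1.5%). In IH vs. SH 1 was higher and 0 lower at these limits (all genes, 0.572% and 0.409%). The libraries of IH and control did not overlap in 7 members that were higher and 7 that were lower in IH, beside 7.66% and 7.48% of all tested genes. For SH and control these were 5 and 3 members, beside 8.76% and 10.6%, and for IH and SH 1 and 2, beside 2.63% and 1.83%. The median log2 fold change over the members was 0.01 in IH vs. control and -0.02 in SH vs. control, beside -0.02 and 0.00 over all tested genes. Single libraries moved these member medians to either side of 0. They were -0.09 (IH) and -0.08 (SH) without control 3, and 0.07 and 0.02 without control 4. Both exposures were compared with the same 4 controls, so their values are given side by side.

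**Figure D1:**
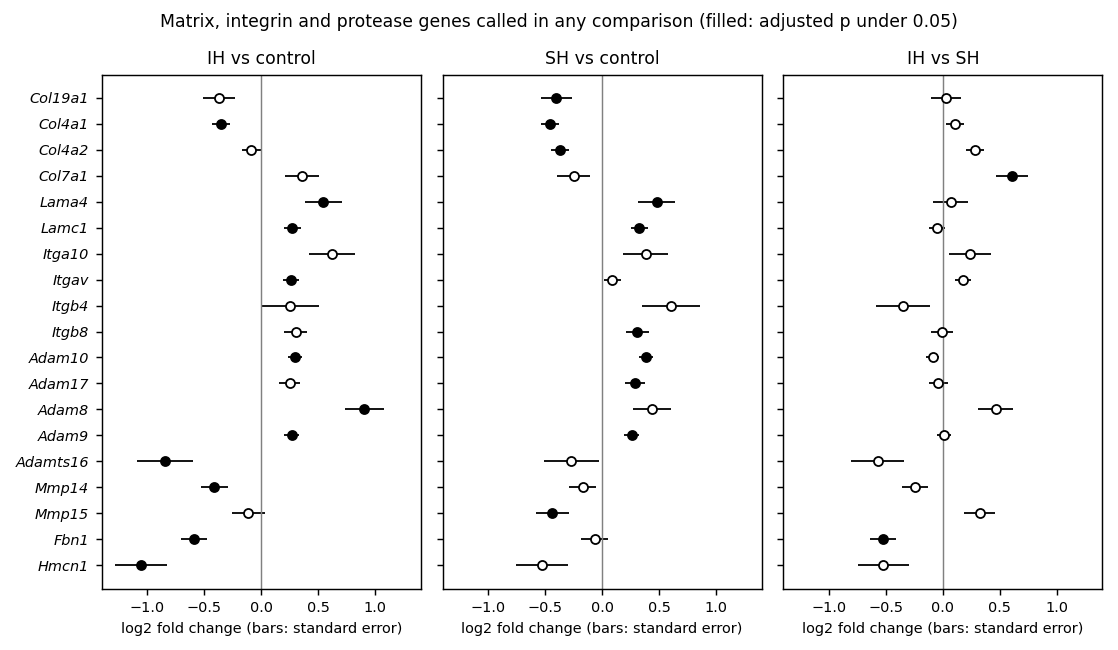
Log2 fold changes (points) and their standard errors (bars) of the 19 members that passed an adjusted p of 0.05 or the study's limits in any of the 3 comparisons, in panels for IH vs. control, SH vs. control and IH vs. SH. Filled points passed the adjusted p. Adam8 and Hmcn1 lie farthest from 0 in the IH panel, at 0.91 and -1.05.

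Col4a1, a chain of the network-forming type IV collagen of basement membranes, fell under both exposures. It measured 3086, 2814, 2597 and 2749.7 in control, 2229, 2144, 2014, 2472 and 2131 in IH and 2359, 1802, 2027, 2150.2 and 1893 in SH. Every hypoxia library lay below every control library. Col4a1 fell by 21.8% in IH (log2 fold change -0.36, SE 0.08, adjusted p = 0.0131) and by 27.2% in SH (log2 fold change -0.46, SE 0.08, adjusted p = 0.00209). Its partner chain Col4a2 measured 3659, 3095, 3016 and 3319 in control, 3388, 2997, 2964, 3166 and 2894 in IH and 2969, 2264, 2575, 2513 and 2343 in SH. The SH libraries were all below the controls, while the IH libraries overlapped them. Col4a2 fell by 22.6% in SH (log2 fold change -0.37, SE 0.08, adjusted p = 0.00618) and was not called in IH (log2 fold change -0.09, SE 0.08, adjusted p = 0.481). The Col4a2 difference between IH and SH missed the threshold (log2 fold change 0.28, SE 0.08, adjusted p = 0.0666), though it was called in 4 of the 24 alternative analyses, among them without SH 1 (adjusted p = 0.0176), by DESeq2 (adjusted p = 0.0275) and with trends with GC content and transcript length removed (log2 fold change 0.22, adjusted p = 0.0364).

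Col4a1 (chromosome 8, 11248423 to 11362826, minus strand) and Col4a2 (chromosome 8, 11362471 to 11499287, plus strand) are head-to-head neighbours whose annotated spans overlap at their starts in GRCm39. The library kit keeps strand, but whether counting used it is not given in the sources used here, so reads over the shared stretch may be split between them. The Col4a2 fall was also reduced to -0.15 (adjusted p = 0.123) after the same trends were removed, whereas Col4a1 stayed called in both comparisons. Markers of endothelial cells, which with mural cells make this collagen, summed to 8857 to 10192 in control, 9769.5 to 10177 in IH and 10349 to 11709 in SH, and 4 of the 15 listed endothelial genes in the table rose and 0 fell in SH (all tested genes, 10.2% higher), 1 rose and 1 fell in IH (6.08% and 4.85%), and 2 were lower in IH than in SH (0.899%). Mural markers summed to 5717 to 6955, 5616 to 6389 and 5729 to 8153, and none of the 10 was called.

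Of the 34 collagens tested, 1 fell and 0 rose in IH, and 3 fell and 0 rose in SH. Over all tested genes 4.85% were called lower and 6.08% higher in IH, and 10.5% and 10.2% in SH, so the falls do not set the collagens apart. In SH vs. control 25 of the 34 had a log2 fold change below 0, with a median of -0.24 beside 0.00 over all genes. That median stayed below 0 in each of the 24 alternative analyses, from -0.35 to -0.09. It was nearest to 0 without IH 5, SH 4 and SH 5, where 15 of the 34 were above and 19 below 0, and it was -0.14 with the GC content and length trends removed (12 and 22). In IH vs. control the collagens were split evenly, 17 above and 17 below 0, with a median of -0.03, but single libraries moved that split. The median was -0.13 without control 2, -0.22 without control 3 (10 above and 24 below), -0.12 without IH 1 and -0.21 without IH 4 (9 and 25), and it reached 0.07 without IH 3. Col19a1, a collagen found near basement membranes and made by some interneurons, was the other called collagen in SH. It measured 926, 877, 827 and 948 in control, 653, 864, 572, 858 and 508 in IH and 654, 779, 701, 641 and 609 in SH, so that the SH libraries were below all controls. It fell by 24.3% in SH (log2 fold change -0.40, SE 0.14, adjusted p = 0.049) and lost its call in 9 of the 14 analyses that left out 1 library (adjusted p of 0.0574 to 0.113 in those). In IH its adjusted p was 0.0868, and without IH 2 or IH 4 it passed (adjusted p of 0.0469 and 0.0496).

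Col7a1, the anchoring fibril collagen, was the one member higher in IH than in SH. It measured 155, 173, 177, 202 and 232 in IH and 128, 142, 115, 98.7 and 131 in SH, and 153, 133, 163 and 137 in control. The IH and SH libraries did not overlap, and the controls overlapped both. The difference was 52.4% (log2 fold change 0.61, SE 0.14, adjusted p = 0.0337), and it was lost without any one of IH 2, IH 3, IH 4, IH 5, SH 3, SH 4 and SH 5 (adjusted p of 0.0512 to 0.0837). In a fit without the control libraries the adjusted p was 0.0805, and with the GC content and length trends removed it was 0.0521 (log2 fold change 0.54).

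Laminins are trimers of an alpha, a beta and a gamma chain, and 2 of the 10 laminin and nidogen genes tested rose under both exposures with none falling, beside 6.08% (IH) and 10.2% (SH) of all tested genes called higher and 4.85% and 10.5% called lower. Lamc1, the most widely used gamma chain, measured 997, 1016, 889 and 1094 in control, 1238, 1105, 1164, 1262 and 1258 in IH and 1267, 1108, 1333, 1247 and 1302 in SH. Each hypoxia library was above each control. Lamc1 rose by 25.3% in SH (log2 fold change 0.33, SE 0.07, adjusted p = 0.0079) and by 20.7% in IH (log2 fold change 0.27, SE 0.07, adjusted p = 0.0298), and the IH call was lost without control 1, control 2, control 3, IH 1, IH 4 or IH 5 (adjusted p of 0.057 to 0.0808). Lama4, an alpha chain of vascular basement membrane, measured 123, 119, 107 and 116 in control, 185, 181, 118, 179.9 and 183 in IH and 173, 168, 194, 119.9 and 154 in SH. All but IH 3 and SH 4 were above the control range. Its rises of 45.9% in IH (log2 fold change 0.55, SE 0.16, adjusted p = 0.0435) and 39.3% in SH (log2 fold change 0.48, SE 0.16, adjusted p = 0.0486) lay near the threshold and were lost in 10 and 12 of the 14 analyses without 1 library, with adjusted p up to 0.0913 and 0.104. Each was also lost in 4 of the 8 other methods. Among these were choroid plexus content as a covariate (adjusted p of 0.0588 in IH and 0.0725 in SH) and removal of the GC content and length trends (0.0691 and 0.135). Lamb1, the most abundant of these genes per length, measured 874 to 1182 in control, 878 to 1263 in IH and 972 to 1157 in SH, and was not called.

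Of the 15 integrin chains, 1 rose in each exposure and none fell, beside 6.08% (IH) and 10.2% (SH) of all tested genes called higher. Itgav, the alpha chain of the vitronectin and TGF-beta-activating receptors, measured 1140.2, 1115, 1128 and 1219.8 in control, 1513, 1258, 1325, 1294 and 1501 in IH and 1126, 1358, 1191, 1183 and 1256 in SH. The IH libraries all exceeded the controls, whereas the SH libraries overlapped them. Itgav rose by 19.8% in IH (log2 fold change 0.26, SE 0.07, adjusted p = 0.036), a call lost without control 1, control 2, control 3, IH 1 or IH 5 (adjusted p of 0.0723 to 0.0965) and also with the GC content and length trends removed (log2 fold change 0.14, adjusted p = 0.213) or with choroid plexus content as a covariate (adjusted p = 0.0516).

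Itgb8, a beta chain that pairs with Itgav and serves TGF-beta activation in the brain, measured 1283, 1418, 1453 and 1676 in control, 1840.2, 1709, 1556, 1861 and 2011 in IH and 1952, 1827, 1449.6, 1943 and 1858 in SH. Only SH 3 and IH 3 lay within the control range. It rose by 24.0% in SH (log2 fold change 0.31, SE 0.10, adjusted p = 0.0382), and a change of similar size in IH missed the threshold (log2 fold change 0.30, SE 0.10, adjusted p = 0.0602). Without control 1, control 2, control 3, SH 1, SH 2, SH 4 or SH 5 the SH call was lost (adjusted p of 0.0653 to 0.121), and without control 4, IH 3 or SH 3 the IH change passed (0.0334 to 0.0402). With the GC content and length trends removed the SH value was 0.11 (adjusted p = 0.537).

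Itga10 and Itgb4 met the study's limits without passing the adjusted p. Itga10, a collagen-binding alpha chain, measured 96.5, 89.8, 87.5 and 157 in control, 220.5, 191, 134, 141 and 139 in IH and 159, 136, 136, 132 and 136 in SH. Control 4 stood well above the other controls and inside the range of the hypoxia libraries (log2 fold change 0.62, SE 0.20, adjusted p = 0.0562 for IH), and without control 4 or IH 3 the IH difference was called (adjusted p of 0.016 and 0.042). Itgb4, the beta chain of the hemidesmosome receptor for laminin, measured 254, 250.2, 157 and 229 in control, 179, 211, 212, 264 and 455 in IH and 415, 291, 219.9, 406 and 355 in SH. IH 5, SH 1 and SH 4 were its highest libraries (log2 fold change 0.60, SE 0.26, adjusted p = 0.105 for SH), and the SH difference was called without IH 5 (adjusted p = 0.038). Itgb1, the common beta partner of many alpha chains and the most abundant integrin per length (265 normalized counts per kilobase), measured 1178 to 1405 in control, 1182 to 1493 in IH and 1396 to 1576 in SH, and was not called. Itgb1bp1, which binds the Itgb1 tail, measured 338 to 410.4 in IH against 420.0 to 519 in SH, without overlap but not called (log2 fold change -0.27, SE 0.08, adjusted p = 0.118).

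The ADAM family holds membrane-bound sheddases. Of the 8 genes tested, 3 rose and none fell in IH, namely Adam8, Adam9 and Adam10, and 3 rose and none fell in SH, namely Adam9, Adam10 and Adam17, beside 6.08% and 10.2% of all tested genes called higher in IH and SH. Their median log2 fold change was 0.25 in IH and 0.27 in SH, and stayed above 0 in all alternative analyses (lowest 0.16 in both).

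Adam10, the alpha-secretase that cleaves the amyloid precursor protein and Notch, is at chromosome 9, 70586221 to 70687511. It measured 1739.9, 1694, 1745 and 1643 in control, 2065, 1926, 2218, 2109 and 2151 in IH and 2066, 2339.9, 2294, 2084 and 2368 in SH. Each of the 10 hypoxia libraries exceeded the highest control. Adam10 rose by 22.7% in IH (log2 fold change 0.30, SE 0.06, adjusted p = 0.00731) and by 30.8% in SH (log2 fold change 0.39, SE 0.06, adjusted p = 0.000862). Both calls were kept whichever single library was left out, but with the GC content and length trends removed the IH value was 0.15 (adjusted p = 0.129) and the SH value 0.21, which was still called. The promoter of this gene is the one printed above with 3 core matches.

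Adam9 is a widely expressed sheddase of the same type. It measured 1092, 1171, 1109 and 1239 in control, 1373, 1385, 1473, 1319.8 and 1384 in IH and 1313, 1359, 1259, 1437 and 1522 in SH. Again no hypoxia library reached down to the controls. Adam9 rose by 20.3% in IH (log2 fold change 0.27, SE 0.07, adjusted p = 0.02) and 19.6% in SH (log2 fold change 0.26, SE 0.07, adjusted p = 0.0149). Leaving out control 1 moved the IH adjusted p to 0.0654 and leaving out control 2 moved it to 0.0501, and removing the GC content and length trends moved the SH adjusted p to 0.0911. The SH call was also lost without IH 5, SH 4 and SH 5 (log2 fold change 0.19, adjusted p = 0.102).

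Adam17, the sheddase of tumor necrosis factor, measured 399, 416, 388 and 436 in control, 568, 454, 466, 490.0 and 454 in IH and 457, 489, 467, 526 and 566 in SH. Both exposures were above all controls. The rise of 22.2% in SH was called (log2 fold change 0.29, SE 0.09, adjusted p = 0.0341) and the one in IH was not (log2 fold change 0.25, SE 0.09, adjusted p = 0.0827). The SH call was lost without control 1, control 2, control 3, SH 2, SH 4 or SH 5 (adjusted p of 0.0518 to 0.0855) and with the GC content and length trends removed (log2 fold change 0.17, adjusted p = 0.248).

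Adam8, an ADAM protease best known in leukocytes and microglia, had the largest rise among the called members. It measured 156, 112, 140.2 and 157 in control, 331, 216, 315, 220.1 and 241 in IH and 162, 166, 193, 219 and 219.6 in SH. All IH and all SH libraries exceeded the highest control, and IH 1 and IH 3 were the highest of all. Adam8 rose by 87.4% in IH (log2 fold change 0.91, SE 0.17, adjusted p = 0.00429) and was called in every analysis that left out 1 library. In SH the value was smaller and missed the threshold (log2 fold change 0.44, SE 0.17, adjusted p = 0.071), passing only without SH 1 (adjusted p = 0.0489), and the difference between IH and SH was not called (log2 fold change 0.46, SE 0.15, adjusted p = 0.142). Markers of microglia, which are known to express Adam8, summed to 5034 to 5636 in control, 4645 to 5801 in IH and 3779 to 4650.3 in SH, with 4 of 7 called lower in SH, 0 called in IH and 1 called higher in IH than in SH. Over all tested genes 10.5% were called lower in SH and 1.47% higher in IH than in SH. The microglial integrin chain Itgam was not called, at 583 to 705 in control, 574 to 700.1 in IH and 397 to 639.6 in SH.

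Adam11, a neuronal ADAM without protease activity, was the most abundant member of the family at 1304 normalized counts per kilobase. It was not called, and its lowest values were in IH 5 (5337), SH 4 (5739.8) and SH 5 (5066) against 6464 to 8302 in the other 11 libraries.

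**Figure D2:**
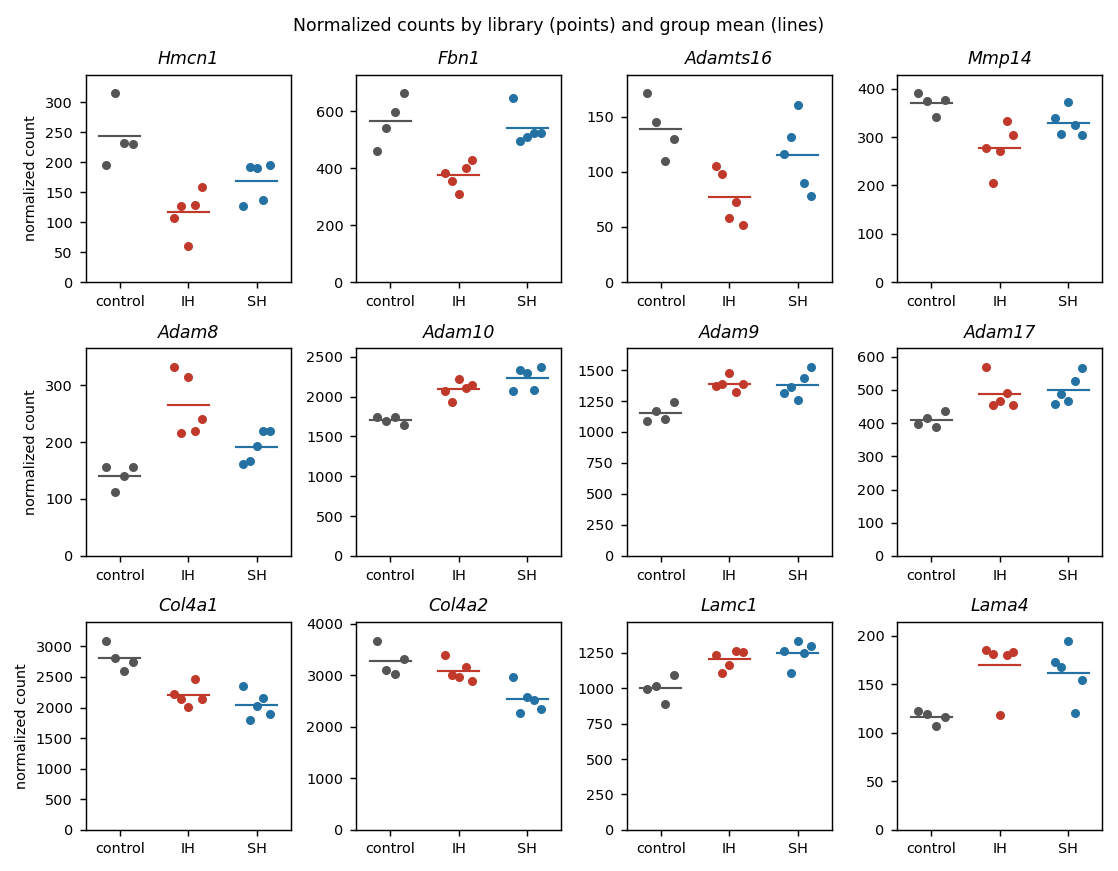
Normalized counts of 12 members in each library (points), by group on the horizontal axis, with the group mean as a line and a vertical axis from 0. In Adam10, Adam9, Adam17, Lamc1 and Adam8 all hypoxia points lie above the control points, in Col4a1 all lie below, and in Hmcn1, Fbn1, Adamts16 and Mmp14 the IH points lie below the control points.

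The called changes among the ADAMTS and MMP genes were falls. Adamts16, a secreted metalloprotease, measured 171, 145, 110.0 and 129 in control, 106, 97.9, 58.4, 73.0 and 51.9 in IH and 116, 131, 160.4, 90.0 and 78.4 in SH. The IH libraries were all below the controls, and the SH libraries overlapped both. Adamts16 fell by 44.3% in IH (log2 fold change -0.84, SE 0.24, adjusted p = 0.0389), the one called gene of 12 ADAMTS and ADAMTS-like genes tested (all tested genes, 10.9% called in IH and 4.85% lower), and it was lost without control 1, control 2, control 4, IH 3, IH 4 or IH 5 (adjusted p of 0.0632 to 0.118) and with the GC content and length trends removed (log2 fold change -0.81, adjusted p = 0.0594). Adamts10, which binds fibrillin and is the most abundant of these per length (164 normalized counts per kilobase), was not called.

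Of 5 MMP genes tested, Mmp14 fell in IH and Mmp15 fell in SH, beside 4.85% and 10.5% of all tested genes called lower. Mmp14, the membrane protease that activates the MMP2 gelatinase, measured 390.4, 374, 341 and 378 in control, 277, 205, 272, 333 and 305 in IH and 339.8, 307, 372, 325 and 304 in SH. All IH libraries were below all controls. It fell by 24.8% in IH (log2 fold change -0.41, SE 0.12, adjusted p = 0.0378), and the call was lost without control 1, control 2, control 4, IH 1, IH 2 or IH 3 (adjusted p of 0.052 to 0.101) and when only the IH and control libraries were fitted (0.0648). Removing the GC content and length trends also ended the Mmp14 call (log2 fold change -0.33, adjusted p = 0.0912). Mmp15, a related membrane-type protease, measured 567, 483, 406 and 577 in control, 549, 451, 351, 559 and 434 in IH and 421, 390.3, 391, 289 and 383 in SH. SH 1 overlapped the lowest control, and SH 4 was the lowest library. It fell by 26.1% in SH (log2 fold change -0.44, SE 0.15, adjusted p = 0.046), and the call was lost in 9 of the 14 analyses without 1 library (adjusted p of 0.0504 to 0.13 in those), and removing the GC content and length trends moved it to -0.23 (adjusted p = 0.291). Mmp17, a GPI-anchored MMP, was by far the most abundant at 806 normalized counts per kilobase, ranged from 4669 to 5949 over the 14 libraries and was not called.

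The inhibitors Timp2 and Timp3 were not called in any comparison. Timp2 had the highest level per length of all members (1739 normalized counts per kilobase) and measured 9643, 6950.1, 5454 and 6595 in control, 7891, 6119, 5690.3, 6365 and 3308 in IH and 8313, 8987, 9583, 4543 and 3693 in SH. Its 3 lowest libraries were IH 5, SH 5 and SH 4. Timp3, which inhibits Adam10 and Adam17, measured 2092 to 2836 in control, 2359 to 3273 in IH and 2545 to 2833 in SH.

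Hmcn1 and Fbn1, both very large proteins of the extracellular matrix, fell in IH. Hmcn1 encodes hemicentin 1 (chromosome 1, 150438275 to 150869200, minus strand). It measured 195, 315, 232 and 231 in control, 108, 127, 60.8, 128 and 159 in IH and 127, 192, 191, 136 and 195 in SH. All IH libraries lay below all controls, IH 3 was the lowest, and the SH libraries met the control range at its lower end. Hmcn1 fell by 51.9% in IH (log2 fold change -1.05, SE 0.23, adjusted p = 0.0105), and the call was kept under each other method tried and without any 1 library. In SH the difference missed the threshold (log2 fold change -0.53, SE 0.23, adjusted p = 0.108) and passed only without IH 3 (adjusted p = 0.048), and IH and SH did not differ at the threshold (log2 fold change -0.52, SE 0.22, adjusted p = 0.252). Hmcn1 was among the scarcest members per length, at 9.55 normalized counts per kilobase.

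Fbn1, the main fibrillin of microfibrils, measured 460.5, 543, 598 and 663 in control, 383, 354, 310.1, 399 and 430.0 in IH and 646, 496, 510.3, 525 and 523 in SH. The highest IH library was below the lowest control and below the lowest SH library. Fbn1 fell by 33.6% in IH (log2 fold change -0.59, SE 0.12, adjusted p = 0.00695), a call kept under each other method tried and without any 1 library. It was 30.5% lower in IH than in SH (log2 fold change -0.52, SE 0.11, adjusted p = 0.0244), a call lost without IH 1, IH 2 or IH 3 (adjusted p of 0.0514 to 0.061). In SH vs. control it was not called (log2 fold change -0.07, SE 0.12, adjusted p = 0.719). It was the only member called both in IH vs. control and in IH vs. SH. None of the 3 tested fibulins was called.

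Ccn3, a matricellular CCN protein formerly called Nov, was abundant (497 normalized counts per kilobase). It measured 4129, 3346, 2962 and 3082 in control, 2777, 2612, 2612, 2283 and 1205 in IH and 3237, 3348, 3929.6, 2134 and 1828 in SH. The IH libraries were all below the controls, and IH 5 was the lowest of the 14 libraries. The IH difference was not called (log2 fold change -0.56, SE 0.23, adjusted p = 0.124), and without IH 5, SH 4 and SH 5 it was smaller but called (log2 fold change -0.39, adjusted p = 0.0341). Ccn1 and Ccn2, targets of YAP and TGF-beta signaling, measured 86.0 to 135 and 121 to 269 in control, 61.2 to 95.3 and 132 to 329 in IH, and 55.6 to 94.3 and 111 to 290.4 in SH, and were not called.

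The perineuronal net genes in the table were not called either. Bcan, the brain lectican brevican, measured 7224, 6339, 6288 and 6974 in control, 5166, 6158, 6419, 6333 and 6877 in IH and 5983, 5035, 5114, 6175 and 6348 in SH. The controls overlapped both groups (log2 fold change -0.23, SE 0.09, adjusted p = 0.0806 for SH). Its SH value changed sign to 0.03 (adjusted p = 0.855) with the GC content and length trends removed, and without IH 5, SH 4 and SH 5 it was -0.32 (adjusted p = 0.0372). The link protein Hapln1 measured 532 to 665 in control, 591 to 796 in IH and 621 to 751 in SH, and Hapln2, the link protein of nodes of Ranvier made by oligodendrocytes, was highest in IH 5 (975). Acan measured 77.3 to 117, 92.0 to 189.9 and 74.3 to 218, and Tnc 145 to 292, 109 to 223 and 126 to 181, in the same order. Of the thrombospondins, which bind matrix and synaptic receptors, Thbs3 was the most abundant per length and measured 699 to 845 in control, 755 to 1074 in IH and 818 to 945 in SH (log2 fold change 0.23, SE 0.10, adjusted p = 0.116 for SH). With the GC content and length trends removed its SH value was 0.36 and passed (adjusted p = 0.0422).

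**Figure D3:**
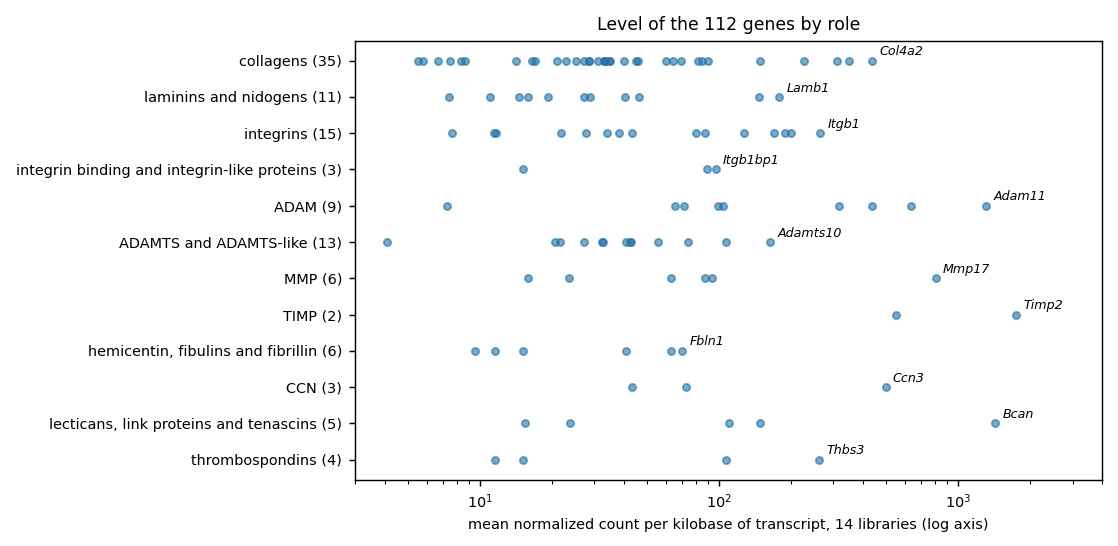
Mean normalized count per kilobase of transcript over the 14 libraries for each of the 112 members (points), on a log axis, in rows by role with the number of genes in brackets and the highest gene of each row named. Timp2, Bcan and Adam11 are the highest, at 1739, 1425 and 1304, and Hmcn1 and several collagens are near or below 10.

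Some members differed between libraries together with choroid plexus content. Col8a1, the short-chain collagen of subendothelial matrix, measured 21.8, 24.1, 5.42 and 622 in control, 391, 10.0, 22.7, 446 and 48.5 in IH and 404, 204, 52.2, 15.0 and 126 in SH. Its 6 highest libraries were the 6 with over 10000 raw Ttr counts, and their mean was 14.6 times that of the other 8. Col9a3, a collagen of cartilage and epithelia, measured 334, 366, 305 and 1767 in control, 1070.0, 329, 341, 1314 and 559 in IH and 1534, 615, 210.2, 252 and 669 in SH, with a ratio of 3.45. Col4a3, a basement membrane chain of epithelia, measured 22.8, 23.2, 12.4 and 197 in control, 122, 13.3, 9.54, 114 and 19.6 in IH and 104, 78.9, 18.2, 21.2 and 41.0 in SH, with a ratio of 6.25. With Col8a2 and Nid2 they made 5 members whose Ttr-rich libraries did not overlap the others, all higher, beside 0.709% of all tested genes. Col4a4, the chain that assembles with Col4a3, had a ratio of 3.26 but overlapped, since SH 3 (65.614), with little Ttr, lay just above the Ttr-rich SH 5 (65.600). The split was made on Ttr itself, which is no member, and none of these 6 genes was called between the exposure groups. No further test of the split was run.

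**Figure D4:**
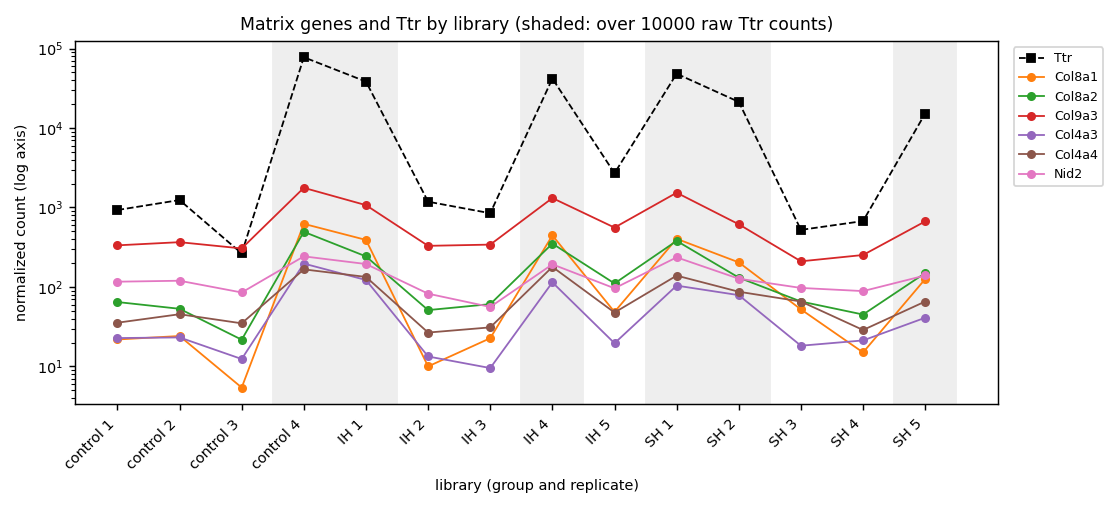
Normalized counts on a log axis of Ttr (dashed, squares) and 6 matrix genes (circles) in each of the 14 libraries, ordered by group and replicate, with the 6 libraries over 10000 raw Ttr counts shaded. All 6 matrix genes peak in the shaded libraries, in the control, IH and SH groups alike.

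A different set of members set IH 5, SH 4 and SH 5 apart, libraries that were picked after their values had been seen, so the values are a description. Col6a1, a chain of the beaded microfibrils of type VI collagen, measured 2298, 1673, 1191 and 1059.8 in control, 1886, 1482, 1249, 1427 and 276 in IH and 1330.4, 1554, 1651, 464 and 283 in SH. The mean of the 3 libraries was 0.223 times that of the other 11. In all, 10 members were lower in these 3 libraries than in any other (Col6a1, Col6a2, Col5a2, Col12a1, Fbln2, Adam11, Adamts2, Timp2, Ccn3 and Itgbl1), beside 3.48% of all tested genes. Another 6 were higher than in any other (Itga7, Itga11, Col11a1, Adam1a, Adamts20 and Adamtsl4), beside 3.76%. Itga7, a laminin-binding alpha chain, measured 502, 632, 773 and 657 in control, 543, 726, 917, 827 and 1333 in IH and 750.4, 475, 505, 1221 and 1356 in SH. Col6a3, the third chain of type VI collagen, went the opposite way to Col6a1 in IH 5 (553) and SH 5 (588), against 73.1 to 147 elsewhere. Thalamus and striatum markers were also highest in IH 5 (6945) and SH 5 (6457), and leptomeningeal fibroblast markers were lower in the 3 libraries (1921 to 2093) than elsewhere (2212 to 5359).

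**Figure D5:**
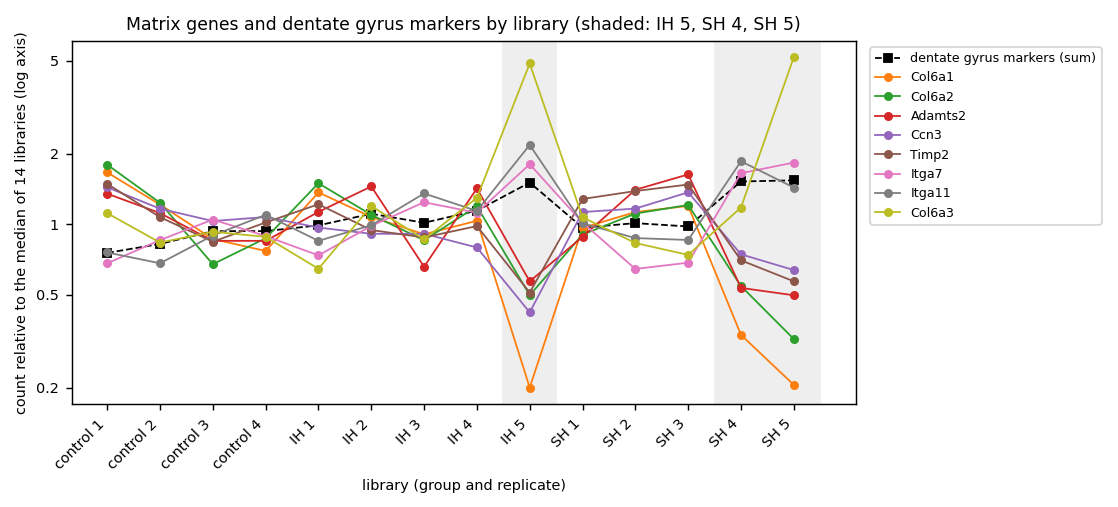
Counts relative to the median of the 14 libraries, on a log axis, for the summed dentate gyrus markers (dashed, squares) and 8 matrix genes (circles), by library, with IH 5, SH 4 and SH 5 shaded. Col6a1 drops lowest and Col6a3 rises highest in IH 5 and SH 5.

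Of the 23 calls for members in the 3 comparisons, 11 were kept without IH 5, SH 4 and SH 5. Those lost were Adamts16, Itgav, Lama4, Lamc1 and Mmp14 in IH vs. control, Adam9, Adam17, Col19a1, Itgb8 and Mmp15 in SH vs. control, and Col7a1 and Fbn1 in IH vs. SH, with adjusted p of 0.052 to 0.202. With gained calls included, that fit called 7, 9 and 0 members in IH vs. control, SH vs. control and IH vs. SH, against 11, 10 and 2. Over all tested genes the calls went from 802 to 604, from 1514 to 884 and from 174 to 32. Without the 6 Ttr-rich libraries, which leaves 8 and only SH 3 and SH 4 in the SH group, none of the 23 was kept, and only 51 genes in all were called in IH vs. control and 26 in SH vs. control. The directions were unchanged in both, and in that smaller set the log2 fold changes were -1.08 for Hmcn1, 0.92 for Adam8, -0.54 for Fbn1 and -0.43 for Col4a1 in IH, and 0.35 for Adam10, -0.43 for Col4a1 and 0.42 for Lamc1 in SH.

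Other genes of matrix biology were read from lists that the rule does not cover, with 128 of 235 listed genes in the table and 123 tested. In IH 8 of these were higher and 3 lower, in SH 17 were higher and 7 lower, and between IH and SH 2 were higher and 0 lower. Over all tested genes 6.08% were higher and 4.85% lower in IH, 10.2% and 10.5% in SH, and 1.47% and 0.899% in IH vs. SH, and the counts of each list stand beside these shares. Matrix proteoglycans and glycoproteins outside the rule had 33 genes tested, of which 5 rose and 0 fell in SH and 1 rose and 1 fell in IH. Of 17 genes of TGF-beta and CCN-related signaling, 5 rose and 1 fell in SH and 1 rose in IH. The 12 genes of collagen modification had 2 that rose in IH and 1 that fell in SH. In the integrin adhesion complex (15 tested), 2 rose and 1 fell in IH and 3 rose and 1 fell in SH. Among 12 other surface receptors for matrix, 2 rose in IH, and 1 rose and 2 fell in SH. The 24 enzymes of hyaluronan and glycosaminoglycans had 1 that fell in IH, and 2 that rose and 2 that fell in SH. The 10 serine proteases and inhibitors had 0 calls in IH and 1 rise in SH.

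Inhba, the activin A subunit of the TGF-beta family, was called in both exposures. It measured 112, 161, 191 and 202 in control, 349, 369, 348, 266 and 404 in IH and 336, 261, 328, 449 and 405 in SH. The lowest hypoxia library exceeded the highest control. Inhba rose in IH (log2 fold change 1.06, SE 0.18, adjusted p = 0.00302) and in SH (log2 fold change 1.10, SE 0.18, adjusted p = 0.00156), and was called in both in all 24 alternative analyses. Ecm2 (log2 fold change 0.69, SE 0.20, adjusted p = 0.0233), Fmod (log2 fold change 1.39, SE 0.46, adjusted p = 0.0429) and Emilin2 (log2 fold change 0.76, SE 0.26, adjusted p = 0.0462), all secreted matrix glycoproteins or proteoglycans, rose in SH, and Tead3, a transcription factor partner of YAP, fell (log2 fold change -0.80, SE 0.27, adjusted p = 0.0462). Those 4 calls were lost in 7, 11, 13 and 16 of the 24 alternatives, in that order. In IH the same 4 genes moved in the same directions without being called (log2 fold changes of 0.58, 0.92, 0.57 and -0.50, adjusted p of 0.0673, 0.187, 0.15 and 0.216). None of them was called between IH and SH (adjusted p of 0.654 to 0.855). Fmod measured 86.5, 75.8, 362, 179.9 and 92.9 in SH, with SH 3 far above the rest, and without SH 3 its log2 fold change was 0.84 (adjusted p = 0.116), against 2.46 without the Ttr-rich libraries, where SH 3 and SH 4 are the only SH libraries.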

How the data were processed

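Poly(A) RNA of hippocampus was sequenced as 2 × 150-base pairs in 14 libraries. Per the submitters' notes and the study's methods, reads were trimmed with fastp 0.23.4, aligned to GRCm39 with HISAT2 2.2.1 and quantified with StringTie 2.2.1. The authors deposited estimated counts per gene, not normalized between samples, for 7756 genes that they had selected by count and by processed signal against control. Non-whole values of 10 genes were rounded. Groups were taken from the sample titles, and all sample columns were used.

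Counts were scaled by TMM and tested with edgeR 4.0.16 (R 4.3.3), by the quasi-likelihood test in one fit of 3 groups, for 7338 genes averaging 40 or more counts in each group, with Benjamini-Hochberg adjustment. Standard errors were derived from the fold change and the F statistic. The test was tested on simulated data. A p-value here sets the difference between groups against the spread between separate mice within groups. In comparisons with control it takes no account of differences between the preliminary experiment and the later one. Positions, lengths and GC content of the longest coding transcript are from GENCODE vM39 (7707 symbols matched directly, 16 through a synonym and 33 not at all). Members, roles and other gene lists were chosen with earlier results of these data known. Genes named with values were those called, those at the study's limits, the gene with the highest mean normalized count of each role, Hmcn1 and Ccn3. Others, such as the genes that follow Ttr, Lamb1 and Itgb1, were picked after their values were seen.

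Other methods tried were DESeq2 1.42.0, size scaling (80th percentile, library total), no filter, fits of 2 groups, a replicate block, a choroid plexus covariate, removal of loess trends with GC content and length (span 0.3), and leaving out each library. Leaving out the 6 Ttr-rich libraries, or IH 5, SH 4 and SH 5, was added after seeing the data. The labels do not say that the replicate numbers pair the samples. The deviations of 13 same-numbered pairs correlated from -0.30 to 0.46 with 6 above 0.1. Differently numbered pairs were not correlated, so these values cannot decide whether the numbers pair the mice. No 2 libraries of a group agreed within sampling noise, with chi-square per degree of freedom of 8.96 to 45.5 in 26 pairs.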

Additional observations from a re-analysis of the deposited data

Results flagged for a closer look

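Among the 81 groups formed by 27 named members and the 3 exposures, 7 held a library whose gap to its nearest neighbor was large against the range of its group, and chance flags about 1 in 20 groups. Adam11 was at 5337 normalized counts in IH 5, below 6950.2 to 7347 in the other IH libraries. Fbn1 was at 646 in SH 1, above 496 to 525 in the other SH libraries. Itga10 was at 157 in control 4, above 87.5 to 96.5 in the other controls, and at 159 in SH 1, above 132 to 136 in the rest of SH. Itgb8 was at 1449.6 in SH 3, below 1827 to 1952. Lama4 was at 118 in IH 3, below 179.9 to 185. Mmp15 was at 289 in SH 4, below 383 to 421.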

How the results depend on the processing

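Of 44 gene and comparison pairs, 1056 alternative values were computed, of which 876 kept both direction and side of the threshold, 154 lost a call, 25 gained one and 1 reversed (Bcan in SH vs. control, 0.033 with GC content and length trends removed). Of the 23 calls, 7 held under all 8 other methods and without any 1 library (Adam8, Fbn1, Hmcn1 and Col4a1 in IH, and Adam10, Col4a1 and Lamc1 in SH), and 12 were lost when the GC content and length trends were removed. Counts of members are given as higher and lower, at an adjusted p under 0.05 first and at the study's limits second. In IH vs. control (6 and 5, then 2 and 3), no filter gave 4 higher at the limits, the plexus covariate 1, and the trend removal 4. Without the Ttr-rich libraries the counts were 0 and 0, with 4 higher at the limits, and without IH 5, SH 4 and SH 5 there were 3 higher at the adjusted p. In SH vs. control (6 and 4, then 1 and 0), library totals gave 2 lower, no filter 2 lower and 2 higher at the limits, the covariate 7 lower and 2 lower at the limits, and the trend removal 3 higher and 4 higher at the limits. Without the Ttr-rich libraries these were 0 and 0 with 5 higher at the limits, and without IH 5, SH 4 and SH 5 the limits gave 3 higher and 1 lower. In IH vs. SH (1 and 1, then 1 and 0), DESeq2 gave 2 higher, fits of 2 groups 0 higher, and the trend removal 0 higher at the limits. Without the Ttr-rich libraries these were 0 and 0, then 2 and 3, and without IH 5, SH 4 and SH 5 they were 0 and 0, then 2 and 4. Leaving out 1 library gave 2 to 9 higher and 3 to 5 lower in IH vs. control (limits 1 to 6 and 3 to 5), 3 to 8 and 2 to 6 in SH vs. control (limits 0 to 4 and 0 to 2), and 0 to 2 and 0 to 1 in IH vs. SH (limits 0 to 2 and 0 to 2). With the replicate block, whose numbers are not known to pair the mice, the limits gave 0 higher and 1 lower in SH vs. control and 1 lower in IH vs. SH, 7 of the 23 calls were lost and 4 other pairs passed, among them Col4a2 in IH vs. SH (adjusted p = 0.0147). The cause of these moves was not tested, and no fit varied depth.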
